A study of Mus musculus with 15 samples.

Results

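The comparison described here sets CD8 T cells that did not bind the Flica probe on day 7 of acute graft-versus-host disease (aGvHD) against CD8 T cells of untransplanted mice, 6 of the 15 sequenced libraries in all. Its libraries are the 3 CD8 Flica-negative and the 3 CD8 control libraries, chosen by their labels, and its genes are the 4567 listed in at least 1 of the 4 gene tables that the authors made. Per the labels, the day 7 cells were C57Bl6 T cells after transfer to allogeneic Balb/C recipients, which the study irradiated lethally and also gave bone marrow. They were sorted from the spleen by CD3, CD8 and the FAM-FLICA probe, a dye that binds active caspase-1, and only cells without the dye are in these libraries. None of these parts donor from recipient cells, and the full gating of the sort was not read here, so the share of recipient cells is not known here. The study also measured how recipient lymphocytes were lost from the spleen after irradiation, in mice without donor cells. Control cells were Flica-negative CD8 cells from spleens of C57Bl6 mice without treatment, labelled day 0. The study's methods give an age of 6 to 8 weeks for donors and recipients, and legends of other experiments give 5 to 6 weeks for recipients. Its legends describe sorts of splenocytes from 8 to 12 mice with aGvHD or from 1 or 2 controls, and the labels call the replicates biological replicates. No library came from a syngeneic or a merely irradiated recipient, so the response to the foreign host, the irradiated and emptied host, the transfer itself and the 7 days cannot be told apart here.

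A resting CD8 T cell circulates between blood and lymphoid organs, guided by Ccr7 and kept alive by interleukin 7. When its receptor meets a foreign antigen, it divides many times and becomes an effector cell, which carries granzymes and perforin, secretes interferon gamma, and exchanges its lymph node homing receptors for receptors of inflamed tissue. In aGvHD the foreign antigens are those of the host, and donor CD8 cells of this kind injure host organs. Transcription factors such as T-bet and Blimp-1 promote the effector state, while Tcf7 and Lef1 mark resting and memory cells.

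Messenger RNA was sequenced, and the libraries held between 2503052 and 3147466 counts on the listed genes. Control libraries summed to 2917316, 2848840 and 2632989 counts on these genes, and Flica-negative libraries to 2503052, 3096872 and 3147466. Normalized counts below are counts divided by a size factor per library, which ranged from 0.939 to 1.16. Between 3301 and 4064 of the listed genes had a count in each of the 6 libraries. On log2 normalized counts with 1 added, distances between libraries of the same group ran from 80.4 to 107 and between libraries of different groups from 209 to 250. No library stood closer to the other group than to its own.

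The sort label was checked against cell type markers. Among 13 T cell markers, Cd8a, a chain of the CD8 co-receptor, was the member with values here, at 21642, 18353 and 19250 normalized counts in the 3 control libraries and 13841, 14967 and 12817 in the 3 Flica-negative libraries. In the CD4 control libraries of the same series its mean was 69.4 ± 40.9 (SD, n = 3), well below the sorted CD8 cells. The markers Cd3e, Cd3d, Trac and Cd4 were in none of the 4 tables and were not analysed here. Markers of other cell types moved between the groups, and those of neutrophils and B cells had the most members called. The 22 listed markers of neutrophils and their progenitors summed to 145, 67.2 and 93.3 normalized counts in the control libraries and to 15269, 24799 and 24428 in the Flica-negative libraries, and the 17 listed B cell markers to 17559, 12299.7 and 12429.8 and 1194, 1001 and 877. Both are described further on, with markers of further types. In sorted bulk libraries, fewer cells of a type and less RNA per cell cannot be told apart.

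On day 7, the Flica-negative CD8 libraries held less of the transcripts of resting cells and more of those of dividing cytotoxic effectors. Granzyme B, interferon gamma and the inhibitory receptors Pdcd1, Lag3 and Havcr2 rose more than 16-fold, and Tcf7 and Ccr7 fell more than 16-fold. All 82 listed genes of mitosis rose. Of 4444 genes tested, 1726 (38.8%) were higher and 1328 (29.9%) lower in the Flica-negative libraries, at an adjusted p below 0.05 in the quasi-likelihood test of edgeR. The rise passed 4-fold for 1479 genes and 16-fold for 814, and the fall passed them for 1044 and 464. Among called genes, 324 had no count in any control library and 195 had none in any Flica-negative library. The median log2 fold change was 0.61 over all tested genes (0.51 with genes at 0 in a group set to the bound that 3 counts per library allow), 3.87 among genes called higher and -3.06 among those called lower.

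These shares describe a selected table. Each gene entered the tables because the authors' own test called it in at least 1 comparison with a log2 fold change above 2 or below -2, for 2496 of the 4567 in this same comparison, so a count of called genes is no independent evidence of a change. Of the 1949 tested genes that were listed for other comparisons only, 15.1% were higher and 17.8% lower. Of the 421 tested genes listed through the CD4 comparison alone, 20.7% were higher and 12.8% lower, and this set too depends on these 6 libraries, since a gene that was listed for a CD8 comparison is not in it. The lists of gene groups below are read beside these shares, and members absent from the tables have no values here. Scaling over the listed genes with TMM shifts the median log2 fold change by -0.38, and with median-of-ratios factors by 0.0791, so small changes are relative to the size factors used.

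**Figure D1:**
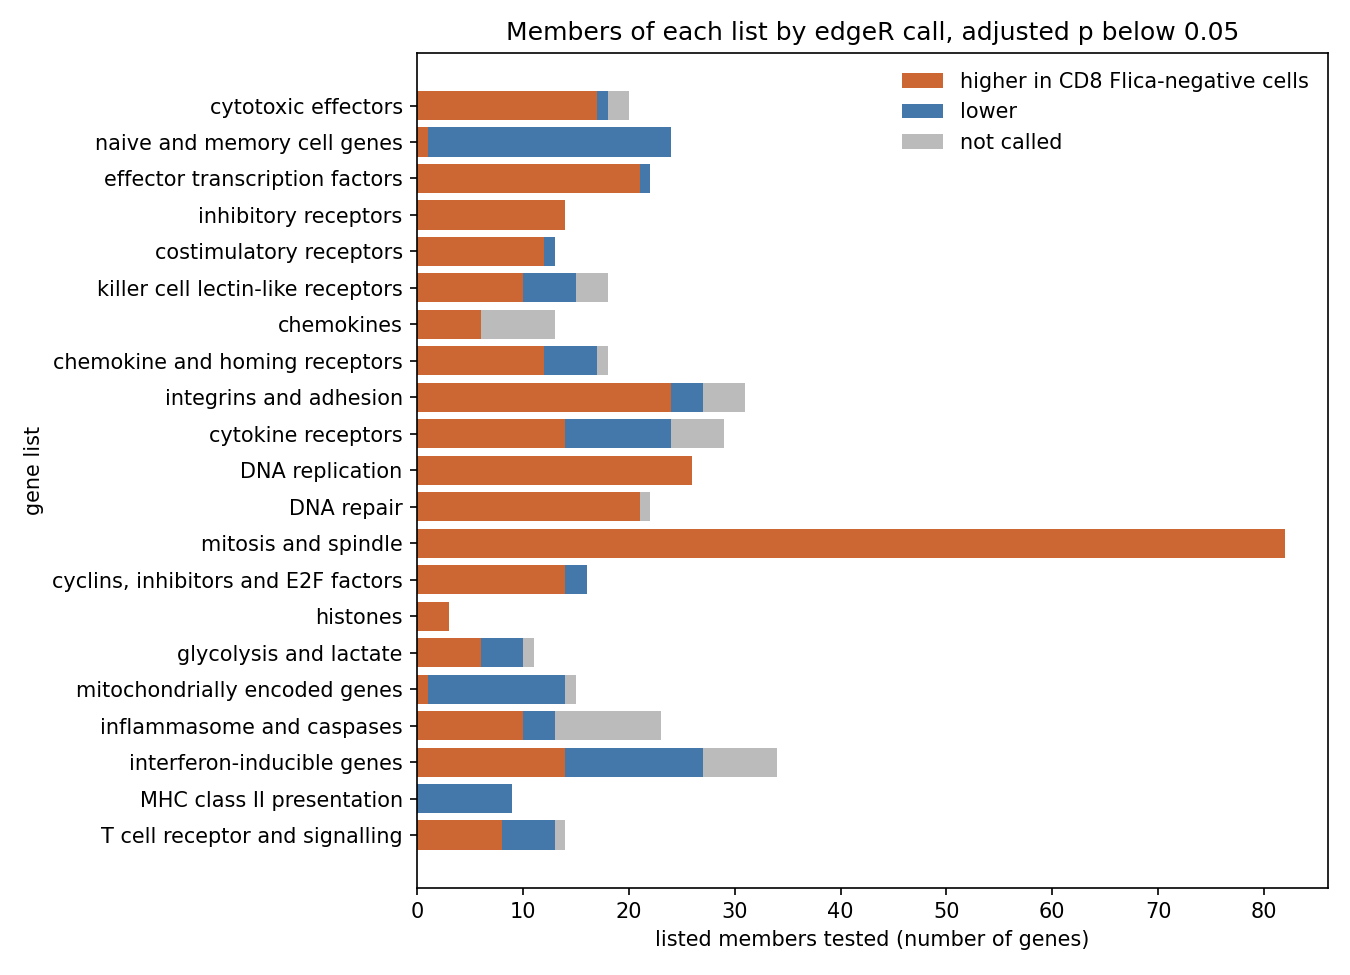
Listed members of each gene list that were tested, by their call in edgeR at an adjusted p below 0.05 (horizontal axis, number of genes). The lists of mitosis, DNA replication and inhibitory receptors hold only genes called higher, and the list of MHC class II presentation only genes called lower.

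The 10 largest rises among abundant genes came from genes that were all but silent in the controls. Esm1, which encodes the secreted proteoglycan endocan, had no count in the 3 control libraries and 809.7, 915 and 1012 normalized counts in the Flica-negative libraries, at least 333-fold higher. Galnt3, a glycosyltransferase that starts O-linked sugar chains, was likewise at 0 in the controls and at 845, 802 and 696 on day 7, at least 285-fold higher. Vax2, a homeobox factor known from the developing eye, was at 0 and at 369.7, 398 and 491, at least 153-fold higher. Epha3, a receptor tyrosine kinase for ephrins, was at least 109-fold higher and Dsp, the desmosomal protein desmoplakin, at least 107-fold. In both of these, Flica-negative replicate 3 was the lowest of its group, with 147 normalized counts for Epha3 beside 428 and 320.0, and 148 for Dsp beside 403 and 331.

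Mt1, a metallothionein that binds zinc and copper, had 1 count in the control libraries and 1126, 1106 and 1665 normalized counts on day 7, a ratio of 4332 with a 95% counting interval from 777 to 171153. Il1rl1, the receptor for the alarmin interleukin 33, also had 1 control count and reached 1173, 1312 and 904, a ratio of 3691 (95% counting interval 662 to 145841). Counting intervals and floors cover counting error only. Ifitm2, an interferon-induced membrane protein, was at 0 in the controls and at least 126-fold higher on day 7. The remaining pair are known from myeloid cells: Camp, the cathelicidin of neutrophil granules, was at 439, 769 and 728 normalized counts on day 7 and Chit1, a chitinase of macrophages, at 356, 250.1 and 275, each with no control count.

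The largest falls include those of 6 genes known from B cells. Ms4a1, which encodes the B cell antigen CD20, went from 1163, 724 and 808 normalized counts in the controls to 0 in the 3 Flica-negative libraries, at least 314-fold lower. Fcmr, the receptor for IgM, went from 983, 635 and 779 to 0, at least 279-fold lower. Pax5, the factor that holds B cell identity, fell with a log2 fold change of -8.41 ± 0.68 (SE, edgeR adjusted p = 3.3e-06), lower in 3 of 3 Flica-negative libraries, and Spib, another B lineage factor, with a log2 fold change of -8.03 ± 0.79 (SE, edgeR adjusted p = 1.3e-05), likewise in 3 of 3. Their few day 7 counts were mostly in replicate 1, without which the log2 fold changes were -10.26 for Pax5 and -12.42 for Spib, and without replicate 3 they were -7.78 and -7.40. Fcer2a, the low-affinity IgE receptor, had 2 counts on day 7, a control to day 7 ratio of 1119 (95% counting interval 309 to 9247), and Ly6d, carried by early and mature B cells, also had 2, a ratio of 472 (130.4 to 3905).

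The other largest falls reported here were not of B cell genes. Slc6a19, a transporter of neutral amino acids, was at 1257, 1228 and 1285 normalized counts in the 3 control libraries and 1.07, 0 and 6.04 in the 3 Flica-negative libraries. Kcna2, a voltage-gated potassium channel, was as even in the controls, at 1340.0, 1349 and 1347, and nearly absent on day 7, at 4.26, 1.87 and 10.4. Kcna2 fell in 3 of 3 Flica-negative libraries with a log2 fold change of -7.87 ± 0.45 (SE, edgeR adjusted p = 4.0e-07), and Slc6a19 in 3 of 3 with a log2 fold change of -8.91 ± 0.59 (SE, edgeR adjusted p = 1.0e-06). Without Flica-negative replicate 3 the values were -8.75 and -10.99, in that order. Rapgef4os2, a transcript opposite Rapgef4, went from 202, 181 and 289 to 0, at least 78.3-fold lower.

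Cytotoxic effector genes were tested for 20 of the 31 genes on their list, and 17 rose, 1 fell and 2 did not pass, with a median log2 fold change of 5.08 (4.95 with genes at their bound) beside 0.61 (0.51) over all tested genes. Gzmb, which encodes the protease granzyme B that starts death of target cells, was at 51.1, 40.3 and 50.97 normalized counts in the 3 control libraries and 34448, 45578 and 42834 in the 3 Flica-negative libraries. Gzma, granzyme A, was at 85.5, 35.8 and 96.2 normalized counts in the 3 control libraries and 18479.5, 23554 and 22593 in the 3 Flica-negative libraries. Granzyme B lies on GRCm38 at chr14:56258838-56262260, minus strand. Both proteases were low in each control library, and no control library overlapped a Flica-negative one. Gzmb rose in 3 of 3 Flica-negative libraries with a log2 fold change of 9.75 ± 0.19 (SE, edgeR adjusted p = 1.0e-09), and Gzma in 3 of 3 with a log2 fold change of 8.22 ± 0.37 (SE, edgeR adjusted p = 1.0e-07).

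Perforin and the granule scaffold were present in the controls and rose by less. Prf1, which encodes the pore that admits granzymes into the target, was at 1538, 1642 and 1447 normalized counts in the 3 control libraries and 7804, 9480.1 and 7701 in the 3 Flica-negative libraries. Nkg7, a granule membrane protein, was at 4534, 4470.3 and 4602 normalized counts in the 3 control libraries and 15113, 15833 and 13188 in the 3 Flica-negative libraries, and Srgn, the proteoglycan serglycin that packs granules, at 3231, 3552 and 2902 and 8768, 8773 and 7568. The groups did not overlap for any of these, and Prf1 rose in 3 of 3 Flica-negative libraries with a log2 fold change of 2.43 ± 0.15 (SE, edgeR adjusted p = 5.9e-07), Nkg7 in 3 of 3 with 1.70 ± 0.12 and Srgn in 3 of 3 with 1.37 ± 0.14. Per kilobase of exon, the most abundant effector transcript was Nkg7 in the controls, at 4962 normalized counts per kb, and Gzmb on day 7, at 28519.

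Ifng, the gene of interferon gamma, was at 85.5, 62.7 and 80.8 normalized counts in the 3 control libraries and 5207, 4741 and 4357 in the 3 Flica-negative libraries. It rose without overlap, in 3 of 3 Flica-negative libraries, with a log2 fold change of 5.96 ± 0.22 (SE, edgeR adjusted p = 2.8e-08). Others that rose were Gzmc, Gzmf and Gzmk, the death ligand Fasl, the cytokines Csf2 and Il10, the granzyme inhibitors Serpinb9, Serpinb9b and Serpinb6b, and Rab27a and Stx11 of granule release. The exception was Lta, lymphotoxin alpha, which fell from 192, 141 and 145 to 13.8, 12.1 and 9.49 normalized counts. Gzmm and Ctsw did not pass, with log2 fold changes of 0.42 and 0.20. Of the 4 members listed for other comparisons only, 2 rose. Summed over the list, control libraries held 16916, 17964 and 17503 normalized counts and Flica-negative libraries 130867, 151072 and 137765, of which Gzmb alone gave 29.3%.

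**Figure D2:**
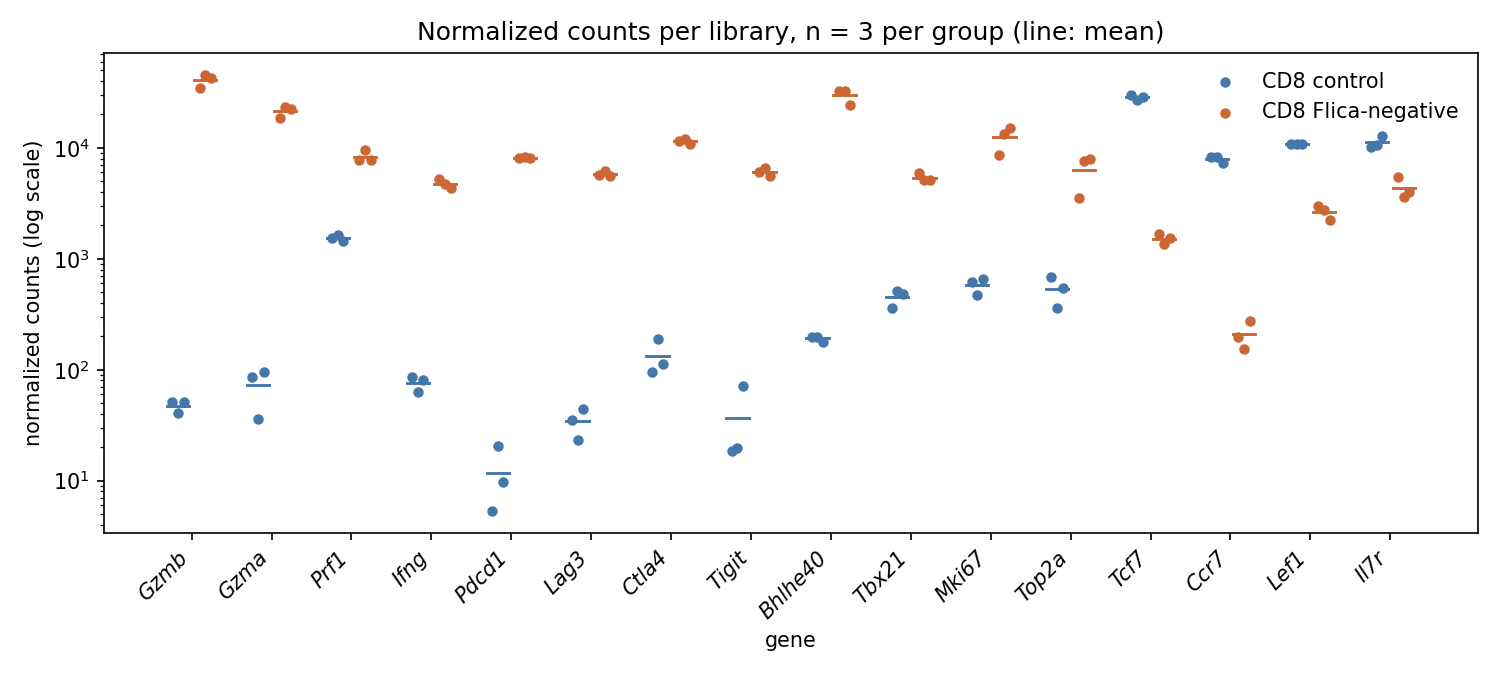
Normalized counts of 16 named genes (vertical axis, log scale) in each of the 3 CD8 control and 3 CD8 Flica-negative libraries, with a line at each mean. The points of the 2 groups are apart for each gene shown, with Gzmb between 34448 and 45578 on day 7 and Tcf7 between 27184 and 30058 in the controls.

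Genes of naive and memory cells moved the other way: of 24 tested members of a list of 34, 23 fell and 1 rose, with a median log2 fold change of -3.61. Tcf7, the gene of TCF-1, which keeps T cells in a self-renewing state, was at 30058, 27184 and 28598 normalized counts in the 3 control libraries and 1678, 1354 and 1537 in the 3 Flica-negative libraries. Lef1, its close relative, was at 10858, 10943 and 10782 normalized counts in the 3 control libraries and 3014, 2731 and 2252 in the 3 Flica-negative libraries. The spread within each group was small against the gap, and Tcf7 fell in 3 of 3 Flica-negative libraries with a log2 fold change of -4.23 ± 0.13 (SE, edgeR adjusted p = 8.6e-09) and Lef1 in 3 of 3 with a log2 fold change of -2.03 ± 0.14 (SE, edgeR adjusted p = 1.4e-06). Satb1, an organizer of chromatin in T cells, fell by less, with -1.61 ± 0.11 on the log2 scale in 3 of 3.

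Homing and survival receptors of resting cells fell as well. Ccr7, the receptor for lymph node chemokines, was at 8339.6, 8273 and 7377 normalized counts in the 3 control libraries and 199, 154 and 276 in the 3 Flica-negative libraries. Il7r, the receptor for interleukin 7, was at 10152, 10724 and 12709 normalized counts in the 3 control libraries and 5507, 3633 and 3994 in the 3 Flica-negative libraries. Ccr7 was low in each Flica-negative library, while Il7r kept at least 3633 normalized counts in each. Ccr7 fell in 3 of 3 libraries with a log2 fold change of -5.25 ± 0.24 (SE, edgeR adjusted p = 1.2e-07), and Il7r in 3 of 3 with a log2 fold change of -1.35 ± 0.17 (SE, edgeR adjusted p = 8.0e-05). Further members that fell included the factors Bach2, Foxo1 and Id3, the cytokine receptor chains Il6ra, Il6st and Tgfbr3, the receptors Ccr9 and Cxcr5, and Dapl1, Igfbp4, Actn1, Treml2, Txk, Als2cl, Sesn3, Cd55 and Ramp1. The exception was Ly6c2, a surface protein of memory and effector CD8 cells, at 6101, 5943 and 6283 normalized counts in the 3 control libraries and 8685, 11901 and 10991 in the 3 Flica-negative libraries, with a log2 fold change of 0.78 ± 0.14 (SE, edgeR adjusted p = 6.9e-04) in 3 of 3 libraries. With TMM over the listed genes that rise no longer passed, at 0.38 with an edgeR adjusted p of 0.19, the highest of 13 alternative settings, over which it ran from 2.9e-04 to 0.19.

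Of the 22 tested genes on the list of 37 effector transcription factors, 21 rose and 1 fell, and the median log2 fold change was 3.67 (3.59 with genes at their bound). Bhlhe40, a basic helix-loop-helix factor needed for cytokine production, was at 198, 197 and 179 normalized counts in the 3 control libraries and 32355, 32449 and 24243 in the 3 Flica-negative libraries. Tbx21, the gene of T-bet, which directs the type 1 effector program, was at 362, 509.5 and 479 normalized counts in the 3 control libraries and 5972, 5148 and 5093 in the 3 Flica-negative libraries. Prdm1, the gene of Blimp-1, which represses the memory program, was at 52.9, 79.7 and 55.8 normalized counts in the 3 control libraries and 1868, 2015 and 2056 in the 3 Flica-negative libraries. All of them were low in each control library and high in each Flica-negative library. Bhlhe40 rose in 3 of 3 libraries with a log2 fold change of 7.28 ± 0.17 (SE, edgeR adjusted p = 2.1e-09), Tbx21 in 3 of 3 with a log2 fold change of 3.59 ± 0.19 (SE, edgeR adjusted p = 2.7e-07) and Prdm1 in 3 of 3 with a log2 fold change of 4.98 ± 0.25 (SE, edgeR adjusted p = 2.1e-07).

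Zeb2, a repressor that promotes terminal effector cells, was lower in level, at 88.1, 55.5 and 63.5 normalized counts in the 3 control libraries and 395, 537 and 439 in the 3 Flica-negative libraries, and rose in 3 of 3 with 2.72 ± 0.32 on the log2 scale. Id2, an inhibitor of E proteins that favours effector over memory cells, was at 1599, 1349.5 and 1208 normalized counts in the 3 control libraries and 8605, 7406 and 8151 in the 3 Flica-negative libraries. The orphan receptors Nr4a1 and Nr4a2, early targets of receptor signalling, were already present in the controls. Nr4a2 went from 590.3, 904 and 758 to 9306, 11806 and 9956 and Nr4a1 from 2496, 2635 and 1771 to 10059, 13182 and 10071, with log2 fold changes of 3.79 ± 0.20 and 2.27 ± 0.19. Irf4, Irf8, Batf, Nfil3, Rora, Runx2, Maf, Tox2, Zbtb32, Nr4a3, Epas1, Vdr, Mybl1 and Mybl2 completed the group that rose. Egr3, another early target of receptor signalling, fell from 763, 1073 and 866 to 139.6, 104 and 148 normalized counts.

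All 14 tested members of the list of 23 inhibitory receptors rose, with a median log2 fold change of 6.05, and the 1 listed for other comparisons only, Cd160, was among them. Pdcd1, which encodes the receptor PD-1, was at 5.29, 20.6 and 9.62 normalized counts in the 3 control libraries and 8024, 8221 and 8133 in the 3 Flica-negative libraries. Lag3, a receptor for MHC class II, was at 35.2, 23.3 and 44.2 normalized counts in the 3 control libraries and 5744, 6225 and 5633 in the 3 Flica-negative libraries, and Havcr2, which encodes TIM-3, at 1.76, 15.2 and 0 normalized counts in the 3 control libraries and 3698, 4363 and 4275 in the 3 Flica-negative libraries. The control libraries held almost no transcript of these 3 genes, and the Flica-negative libraries were close to each other. Pdcd1 rose in 3 of 3 libraries with a log2 fold change of 9.41 ± 0.39 (SE, edgeR adjusted p = 7.1e-08), Lag3 in 3 of 3 with a log2 fold change of 7.42 ± 0.27 (SE, edgeR adjusted p = 2.8e-08) and Havcr2 in 3 of 3 with a log2 fold change of 9.46 ± 0.70 (SE, edgeR adjusted p = 1.9e-06). The control counts of Havcr2 and Pdcd1 were mostly in control replicate 2, without which the log2 fold change was 11.96 for Havcr2 and 10.08 for Pdcd1.

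Ctla4, which competes with CD28 for its ligands, was at 95.1, 191 and 112 normalized counts in the 3 control libraries and 11528, 11936 and 10944 in the 3 Flica-negative libraries, and Tigit, a receptor for nectin-like proteins, at 18.5, 19.7 and 71.2 normalized counts in the 3 control libraries and 6059.7, 6546 and 5564 in the 3 Flica-negative libraries. Tigit was the most abundant of the list per kilobase on day 7, at 6590.1 normalized counts per kb, and Cd160 in the controls. Both rose in 3 of 3 Flica-negative libraries, Ctla4 by 6.43 ± 0.28 and Tigit by 7.38 ± 0.50 on the log2 scale (8.30 for Tigit without control replicate 3). Summed over the list, the control libraries held 714, 842 and 747 normalized counts and the Flica-negative libraries 46899.8, 49270.3 and 43732. The remaining members that rose were Cd244a, Entpd1, Cd200r1, Cd200r4, Pdcd1lg2, Lilrb4a, Lilrb4b and Klrg1. Lilrb4a and Lilrb4b are near-identical copies, so reads may be shared between them.

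Of 13 tested costimulatory receptors and ligands on a list of 25, 12 rose and 1 fell, with a median log2 fold change of 2.47. Tnfrsf9, which encodes 4-1BB, a receptor that appears on activated CD8 cells, was at 174, 147 and 102 normalized counts in the 3 control libraries and 1208, 2033 and 1398 in the 3 Flica-negative libraries. Icos, a relative of CD28, was at 607, 695 and 792 normalized counts in the 3 control libraries and 5017, 4911 and 4633 in the 3 Flica-negative libraries. Tnfrsf1b, a receptor for tumour necrosis factor, was at 1392, 1385 and 1491 normalized counts in the 3 control libraries and 8136, 8358 and 7218 in the 3 Flica-negative libraries. None of these overlapped between the groups, and the log2 fold changes were 3.45 ± 0.30 for Tnfrsf9, 2.80 ± 0.17 for Icos, 2.47 ± 0.14 for Tnfrsf1b and 2.69 ± 0.21 for the adhesion receptor Slamf7. Tnfsf8, the ligand of CD30, fell from 943, 982 and 1004 to 412, 282 and 312, while Tnfrsf8, the gene of CD30 itself, rose from no count in any control library.

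Receptors of the killer cell lectin-like family were split. Of 18 tested on a list of 27, 10 rose, 5 fell and 3 did not pass, and the median log2 fold change was 3.47 (2.49 with genes at their bound). All tested genes gave 38.8% higher and 29.9% lower. Klrc1, the inhibitory receptor NKG2A, was at 67.8, 126 and 136 normalized counts in the 3 control libraries and 9734, 8110.3 and 7227 in the 3 Flica-negative libraries. Klrk1, the activating receptor NKG2D, was at 337, 444 and 755 normalized counts in the 3 control libraries and 4189, 3073 and 3036 in the 3 Flica-negative libraries, and Klrb1c, which encodes NK1.1, at 21.1, 17.01 and 9.62 normalized counts in the 3 control libraries and 963, 836 and 956 in the 3 Flica-negative libraries. Klrc1 rose in 3 of 3 libraries with a log2 fold change of 6.25 ± 0.30 (SE, edgeR adjusted p = 1.3e-07), Klrk1 in 3 of 3 with a log2 fold change of 2.74 ± 0.30 (SE, edgeR adjusted p = 2.6e-05) and Klrb1c in 3 of 3 with a log2 fold change of 5.83 ± 0.35 (SE, edgeR adjusted p = 5.5e-07). Klrc2, an activating partner gene of Klrc1, rose with 4.19 ± 0.49 on the log2 scale. The 5 that fell were all Ly49 genes, Klra6, Klra8, Klra9, Klra10 and Klra13-ps, and Klra2 of the same family was among those that rose. Ly49 genes are near-identical copies, so counts may be shared between them.

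Of 11 tested markers of natural killer cells, 6 rose, 2 fell and 3 did not pass. The list shares Gzma and Nkg7 with the effector list and Klra8 and Klrb1c with the lectin-like receptors. Ncr1, a defining marker of these cells, fell from 14.98, 11.6 and 35.6 to 4.26, 2.80 and 0 normalized counts, and the signalling adaptors Tyrobp and Fcer1g, which myeloid cells also express, rose.

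Among chemokines, 6 of 13 tested members of a list of 27 rose and 7 did not pass. All tested genes gave 38.8% higher and 29.9% lower. Of the 7 members listed for other comparisons only, 1 rose, Cxcl10. Ccl5, a chemokine stored by memory and effector CD8 cells, was at 1011, 2083 and 1819.5 normalized counts in the 3 control libraries and 27476, 20869 and 16396 in the 3 Flica-negative libraries. Ccl4 and Ccl3, secreted by activated T cells, were at 53.7, 45.7 and 53.9 normalized counts in the 3 control libraries and 2674, 2171 and 1562 in the 3 Flica-negative libraries, and at 31.7, 6.27 and 14.4 normalized counts in the 3 control libraries and 2064, 1568 and 1491 in the 3 Flica-negative libraries, in that order. All 3 were lowest in replicate 3 of the Flica-negative group and none overlapped the controls. Ccl5 rose in 3 of 3 with a log2 fold change of 3.72 ± 0.29 (SE, edgeR adjusted p = 2.5e-06), Ccl4 in 3 of 3 with a log2 fold change of 5.38 ± 0.28 (SE, edgeR adjusted p = 2.5e-07) and Ccl3 in 3 of 3 with a log2 fold change of 6.60 ± 0.49 (SE, edgeR adjusted p = 2.0e-06) (7.36 without control replicate 1). Cxcl10, an interferon-induced ligand of Cxcr3, was at 32.6, 37.6 and 34.6 normalized counts in the 3 control libraries and 108, 69.98 and 69.04 in the 3 Flica-negative libraries, and rose in 3 of 3 libraries with a log2 fold change of 1.23 ± 0.46 (SE, edgeR adjusted p = 0.036). It did not pass in 9 of 13 alternative settings, TMM, the replicate block, all 15 libraries in a single fit and leaving out any 1 library, and its adjusted p in edgeR or DESeq2 ran from 0.011 to 0.17 over the 13. The others that rose, Ccl6 and Ccl9, are known from myeloid cells and move with the granulocyte markers described below. Their part in that result was not tested.

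Most tested chemokine and homing receptors rose: of 18 tested on a list of 32, 12 rose, 5 fell and 1 did not pass, with a median log2 fold change of 2.86. Ccr2, which follows chemokines of inflamed tissue, was at 67.8, 181 and 88.5 normalized counts in the 3 control libraries and 6653, 4578 and 3998 in the 3 Flica-negative libraries. Cxcr6, a receptor of liver- and tissue-homing cells, was at 1250.2, 971 and 1117 normalized counts in the 3 control libraries and 5793, 4336 and 3606 in the 3 Flica-negative libraries, and Cxcr3, a receptor for interferon-induced chemokines, at 777, 1012 and 1179 normalized counts in the 3 control libraries and 3878, 3363 and 2895 in the 3 Flica-negative libraries. Ccr2 rose in 3 of 3 libraries with a log2 fold change of 5.49 ± 0.40 (SE, edgeR adjusted p = 1.7e-06), Cxcr6 in 3 of 3 with a log2 fold change of 2.04 ± 0.21 (SE, edgeR adjusted p = 1.6e-05) and Cxcr3 in 3 of 3 with a log2 fold change of 1.77 ± 0.21 (SE, edgeR adjusted p = 4.0e-05). Others that rose included Ccr1, Ccr3, Ccr8, Ccrl2, Cxcr2, Cx3cr1, Xcr1 and C5ar1. Of these, Cxcr2 is also a granulocyte marker and Xcr1 a dendritic cell marker, Ccr1, Ccr3 and C5ar1 are known from myeloid cells, and the part of such cells was not tested. Those that fell were Ccr7, Ccr9, Cxcr5, Ccr6 and Gpr34, and Gpr15 did not pass, at a log2 fold change of -1.64.

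Adhesion and motility genes mostly rose, 24 of 31 tested on a list of 45, with 3 lower and 4 not called, at a median log2 fold change of 2.87 (2.98 with genes at their bound). Vim, the intermediate filament vimentin, was at 5087, 5610.3 and 5326 normalized counts in the 3 control libraries and 51000.3, 49813 and 55043 in the 3 Flica-negative libraries. Lgals1, the secreted lectin galectin-1, was at 908, 825 and 884 normalized counts in the 3 control libraries and 19926, 24010 and 24499 in the 3 Flica-negative libraries. Ahnak, a large scaffold protein below the membrane, was at 9844, 15433 and 15277 normalized counts in the 3 control libraries and 53416, 57925 and 40889 in the 3 Flica-negative libraries. The groups did not overlap, although Ahnak was already high in the controls and its fold was smaller. Vim rose in 3 of 3 libraries with a log2 fold change of 3.28 ± 0.10 (SE, edgeR adjusted p = 8.6e-09), Lgals1 in 3 of 3 with a log2 fold change of 4.71 ± 0.14 (SE, edgeR adjusted p = 8.6e-09) and Ahnak in 3 of 3 with a log2 fold change of 1.91 ± 0.19 (SE, edgeR adjusted p = 1.2e-05). Integrin chains that rose were Itga1, Itga2, Itga3, Itgad, Itgam, Itgax, Itgb1, Itgb3 and Itgb5, alongside the hyaluronan receptor Cd44, annexins and S100 proteins. Itgae, the chain that binds epithelial E-cadherin, fell from 4022, 3356 and 3309 to 127, 63.4 and 115 normalized counts, and Itga5 was lower as well. Itgam and Itgax are also myeloid genes and rose along with the granulocyte markers, whose part was not tested.

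Cytokine receptors moved both ways. Of 29 tested on a list of 51, 14 rose, 10 fell and 5 did not pass, and the median log2 fold change was 1.32. Such a mix is not particular to this list, since 38.8% of all tested genes were called higher and 29.9% lower. Il2rb, the shared chain for interleukins 2 and 15, was at 6216, 8931 and 8984 normalized counts in the 3 control libraries and 31623, 33117 and 30349.9 in the 3 Flica-negative libraries. Il18r1 and Il18rap, the paired chains of the interleukin 18 receptor, were at 1899, 2526 and 2238 normalized counts in the 3 control libraries and 18367, 14419 and 13344 in the 3 Flica-negative libraries, and at 795, 912 and 914 normalized counts in the 3 control libraries and 11145, 9335 and 10899.7 in the 3 Flica-negative libraries, in that order. Both chains rose together in each Flica-negative library. Il18r1 rose in 3 of 3 with a log2 fold change of 2.79 ± 0.17 (SE, edgeR adjusted p = 5.5e-07), Il18rap in 3 of 3 with a log2 fold change of 3.58 ± 0.15 (SE, edgeR adjusted p = 7.2e-08) and Il2rb in 3 of 3 with a log2 fold change of 1.98 ± 0.15 (SE, edgeR adjusted p = 1.9e-06). Ifngr1, the ligand-binding chain of the interferon gamma receptor, was at 2823, 3376 and 3691 normalized counts in the 3 control libraries and 12273, 11369.6 and 12435 in the 3 Flica-negative libraries and rose with 1.87 ± 0.14, while Ifngr2, the second chain, fell from 641, 768 and 479 to 51.1, 15.9 and 31.9 normalized counts. The chains Il2ra, Il12rb1 and Il12rb2 also rose, and receptors for interleukins 4, 5, 6, 7, 9 and 27 fell.

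Genes of DNA replication, mitosis and repair rose nearly without exception. Of 54 replication genes, 26 were tested and all 26 rose, with a median log2 fold change of 2.31, including the 7 listed for other comparisons only. Mcm5, a subunit of the helicase that opens DNA at origins, was at 1032, 995 and 891 normalized counts in the 3 control libraries and 2411, 4103 and 4760.3 in the 3 Flica-negative libraries. Rrm1, the large subunit of ribonucleotide reductase, was at 747, 745 and 828 normalized counts in the 3 control libraries and 1901, 3124 and 3658 in the 3 Flica-negative libraries, and Uhrf1, which copies DNA methylation onto new strands, at 374, 254 and 400.1 normalized counts in the 3 control libraries and 1618, 3016 and 3362 in the 3 Flica-negative libraries. In all 3 genes Flica-negative replicate 1 was the lowest of its group, yet above each control library. Mcm5 rose in 3 of 3 with a log2 fold change of 1.95 ± 0.25 (SE, edgeR adjusted p = 6.9e-05), Rrm1 in 3 of 3 with a log2 fold change of 1.90 ± 0.24 (SE, edgeR adjusted p = 7.9e-05) and Uhrf1 in 3 of 3 with a log2 fold change of 2.96 ± 0.31 (SE, edgeR adjusted p = 1.9e-05). Rpa2, which coats single-stranded DNA, rose with 2.27 ± 0.18 on the log2 scale.

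Of 92 genes of mitosis and the spindle, 82 were tested and all 82 rose, from a log2 fold change of 1.23 to 5.49 with a median of 3.56. Of these, 4 were listed for other comparisons only. Mki67, the proliferation marker Ki-67, was at 618, 473 and 654 normalized counts in the 3 control libraries and 8699, 13395 and 15258 in the 3 Flica-negative libraries. Top2a, the topoisomerase that untangles sister chromosomes, was at 683, 364 and 540.5 normalized counts in the 3 control libraries and 3506, 7578 and 7875 in the 3 Flica-negative libraries. Ncapd2, a subunit of condensin, was at 1236, 1297 and 1548 normalized counts in the 3 control libraries and 3889.6, 5449 and 6988 in the 3 Flica-negative libraries, and Racgap1, which helps place the cleavage furrow, at 2384, 2754 and 2572 normalized counts in the 3 control libraries and 5660.2, 5661 and 6702 in the 3 Flica-negative libraries. Mki67 rose in 3 of 3 with a log2 fold change of 4.42 ± 0.24 (SE, edgeR adjusted p = 3.0e-07), Top2a in 3 of 3 with a log2 fold change of 3.58 ± 0.34 (SE, edgeR adjusted p = 1.1e-05), Ncapd2 in 3 of 3 with a log2 fold change of 2.00 ± 0.22 (SE, edgeR adjusted p = 2.7e-05) and Racgap1 in 3 of 3 with a log2 fold change of 1.23 ± 0.14 (SE, edgeR adjusted p = 4.2e-05). Mitotic kinases (Cdk1, Plk1, Aurka, Aurkb, Bub1), cyclins (Ccna2, Ccnb1, Ccnb2) and kinetochore genes (Ndc80, Nuf2, Cenpe) all belonged to this set.

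The Flica-negative libraries differed among themselves in these genes. Summed over the mitosis list, they held 70895, 107166 and 135056 normalized counts, against 13048, 11209 and 12077 in the controls, and over the replication list 22345, 35334 and 42045 against 6681, 6033 and 6441. Replicate 1 was the lowest in both sums, still above each control library. Of 41 genes of DNA repair, 22 were tested, 21 rose and Dscc1 did not pass, with a median log2 fold change of 2.77. Smc2, the core of condensin, was at 791, 665 and 691 normalized counts in the 3 control libraries and 1407, 2343 and 2600.2 in the 3 Flica-negative libraries. Smc2 rose in 3 of 3 with a log2 fold change of 1.56 ± 0.25 (SE, edgeR adjusted p = 3.2e-04), Rad54l, a motor of strand exchange, in 3 of 3 with 1.43 ± 0.25, and Mms22l, which protects stalled forks, in 3 of 3 with 2.02 ± 0.32.

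Cell cycle regulators were mixed in role. Of 16 tested on a list of 30, 14 rose and 2 fell, with a median log2 fold change of 3.08. E2f2, an activator of replication genes, was at 484, 423 and 337 normalized counts in the 3 control libraries and 3873, 4226 and 4813 in the 3 Flica-negative libraries, and Cdk6, a kinase of the first gap phase, at 999, 1234 and 939 normalized counts in the 3 control libraries and 2556, 3252 and 2813 in the 3 Flica-negative libraries. Those that fell were Ccnd2, cyclin D2, at 6538, 8747 and 9241 normalized counts in the 3 control libraries and 2321, 2079.8 and 1962 in the 3 Flica-negative libraries, and Myc, a driver of growth at the onset of division, at 2962, 2877 and 2847 normalized counts in the 3 control libraries and 704, 611 and 641 in the 3 Flica-negative libraries. Neither pair overlapped: E2f2 rose in 3 of 3 with a log2 fold change of 3.38 ± 0.20 (SE, edgeR adjusted p = 5.2e-07) and Cdk6 in 3 of 3 with 1.44 ± 0.19, while Ccnd2 fell in 3 of 3 with a log2 fold change of -1.95 ± 0.17 (SE, edgeR adjusted p = 5.1e-06) and Myc in 3 of 3 with a log2 fold change of -2.15 ± 0.17 (SE, edgeR adjusted p = 2.8e-06). Inhibitors of the cycle were among those that rose, namely Cdkn1a, Cdkn2a, Cdkn2b, Cdkn2c and Cdkn3, as were E2f1, E2f7, E2f8, Ccne2, Tfdp1, Cks1b and Cks2.

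On a list of 70 histone and chromatin genes, 3 were listed, none of them a core replication histone, and all 3 rose. Hmgb2, a DNA-bending protein of dividing cells, was at 1809.6, 1677 and 1508 normalized counts in the 3 control libraries and 12510.4, 15566 and 18909 in the 3 Flica-negative libraries. Hmgn2, which binds nucleosomes, was at 2253, 1893 and 1559 normalized counts in the 3 control libraries and 6201, 6949.6 and 8543 in the 3 Flica-negative libraries, and Cenpa, the histone variant of centromeres, at 665, 582 and 834 normalized counts in the 3 control libraries and 2366, 2879 and 3663 in the 3 Flica-negative libraries. The log2 fold changes were 3.23 ± 0.17, 1.93 ± 0.19 and 2.10 ± 0.23, each with 3 of 3 Flica-negative libraries above the controls.

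Promoters of genes that rose together, and of interferon-inducible genes called higher or lower, were searched for short motifs. As examples that hold a motif, 4 promoters of genes named above and below are shown, and that of Tgtp2 belongs to a gene that fell. Sequences are from RefSeq on build GRCm38.p6 and run from 250 bases before to 50 after the start of a gene, 5′ to 3′ on its own strand. The motifs, looked for on both strands, were TTTGAA together with CCAAT, the letters of the cell cycle homology element and of the CCAAT box, TTTCCCGC or TTTGGCGC, letters of E2F sites, and GAAANNGAA, letters of an interferon element. Of 32851 promoters of 27025 genes, 6.95% held TTTGAA and CCAAT. Of the 82 mitosis genes, 69 had promoters there, and 40 of their 74 promoters (54.05%) held them. The shares were 8.87% in all genes called higher, 3.33% in genes called lower and 4.93% in genes not called. An E2F-type motif was in 1.56% of all promoters, in 4 of 25 promoters of the 21 replication genes matched of 26, and in 6 of 74 (8.11%) of the mitosis genes. A match is a description of letters, and no binding was measured.

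The promoters of Mki67 (chr7:135716330-135716629, minus strand) and Top2a (chr11:99024140-99024439, minus strand) both hold TTTGAA and CCAAT, and that of Mcm5 (chr8:75109259-75109558, plus strand) holds TTTGGCGC read from the opposite strand. The promoters of the other replication genes named here, Rpa2, Rrm1 and Uhrf1, held no E2F-type motif. Capitals mark these matches on either strand.
Mki67: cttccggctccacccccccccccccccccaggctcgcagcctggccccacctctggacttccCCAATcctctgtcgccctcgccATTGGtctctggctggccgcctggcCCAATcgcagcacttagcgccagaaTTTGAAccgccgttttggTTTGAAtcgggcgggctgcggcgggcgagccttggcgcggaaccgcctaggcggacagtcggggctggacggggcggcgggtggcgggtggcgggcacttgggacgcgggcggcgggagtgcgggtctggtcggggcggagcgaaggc
Top2a: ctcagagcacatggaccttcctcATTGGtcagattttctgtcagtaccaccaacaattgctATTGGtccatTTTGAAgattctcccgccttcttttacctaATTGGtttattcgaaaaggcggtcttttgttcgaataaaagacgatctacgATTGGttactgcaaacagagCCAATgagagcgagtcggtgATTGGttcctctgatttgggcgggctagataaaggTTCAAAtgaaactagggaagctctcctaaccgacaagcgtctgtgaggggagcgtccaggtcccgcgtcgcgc
Mcm5: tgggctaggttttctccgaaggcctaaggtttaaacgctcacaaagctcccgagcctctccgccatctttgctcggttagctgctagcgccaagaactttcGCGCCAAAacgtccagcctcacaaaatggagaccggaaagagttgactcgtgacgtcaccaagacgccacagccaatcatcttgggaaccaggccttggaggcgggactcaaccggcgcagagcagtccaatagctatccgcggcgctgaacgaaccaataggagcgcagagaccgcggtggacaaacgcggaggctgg

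Members of the glycolysis and lactate list moved both ways, while the tested enzymes of glycolysis itself, Hk2, Hk3, Gapdh, Tpi1 and Pgam1, all rose. Of 11 tested on a list of 33, 6 rose, 4 fell and 1 did not pass, at a median log2 fold change of 1.02. Among all tested genes the shares were 38.8% higher and 29.9% lower. Gapdh, a central enzyme of glycolysis, was at 8976, 8267 and 7987 normalized counts in the 3 control libraries and 26247, 29127 and 30807 in the 3 Flica-negative libraries. Tpi1, which acts just before it, was at 840.5, 687 and 829.9 normalized counts in the 3 control libraries and 1762, 2294 and 2694 in the 3 Flica-negative libraries, and Pgam1, which acts after it, at 1259, 1094 and 952 normalized counts in the 3 control libraries and 2072, 2383 and 2269.7 in the 3 Flica-negative libraries. Gapdh rose in 3 of 3 with a log2 fold change of 1.77 ± 0.11 (SE, edgeR adjusted p = 5.5e-07), Tpi1 in 3 of 3 with a log2 fold change of 1.52 ± 0.21 (SE, edgeR adjusted p = 1.4e-04) and Pgam1 in 3 of 3 with a log2 fold change of 1.02 ± 0.18 (SE, edgeR adjusted p = 6.9e-04), but Pgam1 no longer passed with TMM, at 0.59 and an adjusted p of 0.12 in a range from 4.8e-06 to 0.12 over 13 settings. Hk2 and Hk3, hexokinases, and Slc16a3, a lactate exporter, also rose. Pdk1, a kinase that blocks pyruvate dehydrogenase, fell from 6117, 5316 and 5218 to 501, 437 and 419 normalized counts. Its log2 fold change was -3.62 ± 0.17 (SE, edgeR adjusted p = 1.3e-07), in 3 of 3 libraries. Pdk2, Ldhb and Pfkfb4 fell too. The glucose transporters Slc2a1 and Slc2a3, Ldha and Pkm were in none of the tables.

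Transcripts encoded by mitochondria were mostly lower. All 15 genes of the list, which holds the protein and ribosomal RNA genes, owed their listing to other comparisons, and 13 fell, 1 rose and 1 did not pass, with a median log2 fold change of -0.71 and a range from -1.47 to 0.59. The 13 are the genes of proteins of the respiratory chain and ATP synthase. In mt-Co1, the main subunit of cytochrome oxidase, the control libraries held 245702, 243838 and 230294 normalized counts and the Flica-negative libraries 155018, 177009 and 151868. Its partners mt-Co2 and mt-Co3 had log2 fold changes of -0.53 ± 0.07 and -0.62 ± 0.08, and mt-Atp6, of ATP synthase, -0.55 ± 0.08, each lower in 3 of 3 libraries without overlap. The ribosomal RNA mt-Rnr1 rose, from 3019, 3381 and 3384 to 5185, 4707 and 4879, and mt-Rnr2 did not pass, at 0.03. Of the transfer RNA genes, which are not on the list, mt-Ts1 fell, at -0.61, and mt-Tp and mt-Tq did not pass, at -0.17 and -1.08. With TMM the rise of mt-Rnr1 no longer passed, and 13 genes were again called lower.

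The cells of both groups were negative for the caspase-1 probe, yet caspase genes differed in transcript. Of 23 tested on a list of 46 inflammasome and caspase genes, 10 rose, 3 fell and 10 did not pass, at a median log2 fold change of 1.52. All tested genes gave 38.8% higher and 29.9% lower. Among the 13 members listed for other comparisons only, 1 rose and 2 fell, beside 15.1% and 17.8% of all such genes. Casp1 and Casp4, the inflammatory caspases, were at 464, 521 and 472 and 284, 426 and 258 normalized counts on day 7 and at most 54.6 and 24.2 in a control library, with log2 fold changes of 3.48 ± 0.38 and 4.60 ± 0.81 (5.38 for Casp4 without control replicate 2). Il18r1, Il18rap, Naip2, Nlrx1, Nlrp12 and Ifi204 rose as well. Card6, a caspase recruitment protein, fell in 3 of 3 libraries from 2661, 2868 and 2848 to 1108, 884 and 734, and Nlrc4 and Nod2 fell with it. Among those that did not pass were Nlrp3, at 14.98, 6.27 and 9.62 and 14.9, 34.5 and 3.45, Il1b, at 26.4, 42.1 and 15.4 and 35.2, 26.1 and 39.7, and Il18, at 6.17, 8.95 and 0 and 30.9, 11.2 and 16.4.

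Interferon-inducible genes split about evenly: of 34 tested on a list of 86, 14 rose, 13 fell and 7 did not pass, and the median log2 fold change of 0.26 was below the 0.61 of all tested genes. Over all tested genes, 38.8% were called higher and 29.9% lower, so the shares of this list were not far from these. GTPases that defend cells against vacuolar microbes moved both ways, with Gbp3 higher, Gbp11 not called and Gbp9, Iigp1, Tgtp1 and Tgtp2 lower. Tgtp2 was at 5528, 5834 and 5109 normalized counts in the 3 control libraries and 1579.9, 962 and 1032 in the 3 Flica-negative libraries, and Gbp9 at 4543, 4919.9 and 4951 normalized counts in the 3 control libraries and 1555, 1434 and 1524 in the 3 Flica-negative libraries. Ifi213 and Ifi208, members of the nucleic acid sensing family, were at 4188, 4683 and 5085 normalized counts in the 3 control libraries and 776, 581 and 367 in the 3 Flica-negative libraries, and at 3741, 4186 and 4184 normalized counts in the 3 control libraries and 1485, 1066 and 728 in the 3 Flica-negative libraries, in that order. Tgtp2 fell in 3 of 3 with a log2 fold change of -2.20 ± 0.21 (SE, edgeR adjusted p = 1.0e-05), Gbp9 in 3 of 3 with a log2 fold change of -1.68 ± 0.14 (SE, edgeR adjusted p = 5.0e-06), Ifi213 in 3 of 3 with a log2 fold change of -3.02 ± 0.27 (SE, edgeR adjusted p = 6.1e-06) and Ifi208 in 3 of 3 with a log2 fold change of -1.89 ± 0.24 (SE, edgeR adjusted p = 8.5e-05). Those that rose included the membrane proteins Ifitm1, Ifitm2, Ifitm3 and Ifitm6, Mx1, Oas1a, Irf8 and Cxcl10, while Mx2, Usp18, Oas2, Oasl1, Iigp1 and Tgtp1 fell. Tgtp1 and Tgtp2 are near-identical copies, as are many genes of the other families named here, so the split of reads between copies is uncertain.

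The letters GAAANNGAA were in 8.56% of all promoters. They were in 7 of 13 promoters (53.9%) of the 11 matched interferon-inducible genes called higher and in 9 of 10 (90.00%) of the 8 matched genes called lower, so both directions held them. The promoter of Tgtp2 (chr11:49064163-49064462, minus strand) shows 1 match, in capitals.
Tgtp2: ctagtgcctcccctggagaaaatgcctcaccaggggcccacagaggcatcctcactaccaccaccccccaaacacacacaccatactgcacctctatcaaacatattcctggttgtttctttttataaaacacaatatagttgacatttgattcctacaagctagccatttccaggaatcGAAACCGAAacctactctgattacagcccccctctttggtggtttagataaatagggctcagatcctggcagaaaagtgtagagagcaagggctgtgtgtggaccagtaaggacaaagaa

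Of 14 tested genes of T cell receptor signalling on a list of 48, 8 rose, 5 fell and 1 did not pass, with a median log2 fold change of 2.72. Dusp5, a phosphatase that dampens ERK signalling, was at 1086, 1692 and 1084 normalized counts in the 3 control libraries and 14840.3, 14311 and 12218 in the 3 Flica-negative libraries. Dgka, a kinase that removes diacylglycerol and restrains signalling, was at 26044, 27202 and 29011 normalized counts in the 3 control libraries and 10601, 9459.5 and 6466 in the 3 Flica-negative libraries. They did not overlap between groups and moved in opposite directions, Dusp5 with a log2 fold change of 3.42 ± 0.20 (SE, edgeR adjusted p = 5.0e-07) and Dgka with a log2 fold change of -1.63 ± 0.17 (SE, edgeR adjusted p = 1.7e-05), each in 3 of 3 libraries. Dusp4, Spry1, Spry2 and Ubash3b, further restraints on signalling, also rose, as did Rgs1 and Rgs16, regulators of G protein signals. Cd69, an early activation antigen, was at 3646, 2616 and 1963 normalized counts in the 3 control libraries and 6295, 4295 and 4325 in the 3 Flica-negative libraries, and its rise of 0.86 ± 0.24 in 3 of 3 libraries did not pass with TMM, at 0.40 and an edgeR adjusted p of 0.36 in a range from 0.0014 to 0.36 over 13 settings. Cd8a itself fell in 3 of 3 by a small amount, with a log2 fold change of -0.51 ± 0.11 (SE, edgeR adjusted p = 0.0024), and did not pass with all 15 libraries in a single edgeR fit, at an adjusted p of 0.1 in a range from 0.002 to 0.1 over 13 settings.

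Genes of other cell types were counted in full because they moved with the groups. Of 22 markers of neutrophils and their progenitors, 22 were tested, 21 rose and Csf3r did not pass, with a median log2 fold change of 8.17 (6.47 with genes at their bound). All tested genes gave 38.8% higher and 29.9% lower. Since 21 of the markers were listed for this same comparison, their count is no independent evidence. The 1 listed for other comparisons only did not rise. In the controls, 7 were at 0, namely Camp, Elane, Ctsg, Ly6g, Wfdc21, Fcnb and Cebpe. S100a9, a calcium-binding protein of neutrophils, was the most abundant per kilobase in both groups, at 34.9 and 6369 normalized counts per kb. It was at 2337, 3925 and 3711 normalized counts on day 7, and its partner S100a8 at 1967, 2897 and 2906. Flica-negative replicate 1 was the lowest in both and in the sum over the list. Ly6g, a defining surface marker, was at 26.6, 22.4 and 13.8, and Elane and Mpo, granule enzymes of progenitors, at 203, 368 and 243 and 519.9, 912 and 668. The sort required CD3 and CD8 on the surface, and the part of other cells in these transcripts was not tested.

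Macrophage and monocyte markers rose for 8 of 18 tested, none fell and 10 did not pass. Among the 9 listed for other comparisons only, none was called. Their sum was 389, 265 and 204 normalized counts in the controls and 2218, 3744 and 3259 on day 7, with Lyz2, lysozyme, the most abundant per kilobase in both, and the defining marker Adgre1 did not pass. Of 6 tested mast cell and basophil markers, 4 rose, among them the protease genes Mcpt8 and Prss34, and 3 of 6 plasma cell markers rose, the immunoglobulin genes Ighg1, Ighg2b and Ighg2c. Dendritic cell markers gave 2 higher and 3 lower of 6 tested, CD4 and regulatory T cell markers 3 higher and 2 lower of 5, megakaryocyte and platelet markers 1 and 1 of 7, and Acta2 was the 1 endothelial and stromal marker listed, at 0, 14.9 and 3.45 normalized counts on day 7 and 0 in the controls. Erythroid markers rose for 2 of 10, Car1 and Rhag. Haemoglobin genes varied between libraries of the same group, with list sums of 7379, 8189 and 2039 in the controls and 3882, 694 and 372 on day 7, and none of Hba-a1, Hba-a2, Hbb-bs and Hbb-bt passed.

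B cell markers went the other way. All 17 tested fell, with a median log2 fold change of -6.55, and Ms4a1 and Fcmr were at 0 in the Flica-negative libraries. Among them 16 were listed for this same comparison, and the 1 listed for others only also fell. Igkc, the kappa light chain, was the most abundant per kilobase in both groups and was at 2049, 1389.8 and 1283 and 759.6, 496 and 469 normalized counts. Genes of MHC class II presentation moved alongside: all 9 tested members of a list of 11 fell, with a median log2 fold change of -3.49. All 9 were listed for this same comparison. Cd74, the invariant chain, was at 8373, 6400.1 and 6250.0 normalized counts in the 3 control libraries and 850.1, 519 and 772 in the 3 Flica-negative libraries. H2-Ab1 and H2-Aa, the chains of the I-A molecule, fell with a log2 fold change of -2.90 ± 0.29 (SE, edgeR adjusted p = 1.5e-05) and a log2 fold change of -3.49 ± 0.33 (SE, edgeR adjusted p = 9.9e-06), each in 3 of 3 libraries. H2-Ob, a modulator of peptide loading found in B cells, was at 2455, 2221 and 1772 normalized counts in the 3 control libraries and 17.05, 8.40 and 15.5 in the 3 Flica-negative libraries and fell with a log2 fold change of -7.29 ± 0.33 (SE, edgeR adjusted p = 1.1e-07) in 3 of 3. Each of these lists was highest in control replicate 1, with B cell sums of 17559, 12299.7 and 12429.8 and class II sums of 20460.5, 15167 and 13882 in the controls. The part of B cells in the class II values was not tested. Leaving the genes of all marker lists of other cell types out of the count, a choice made after seeing the data, subtracts 51 genes called higher and 25 called lower and leaves 1675 and 1303.

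**Figure D3:**
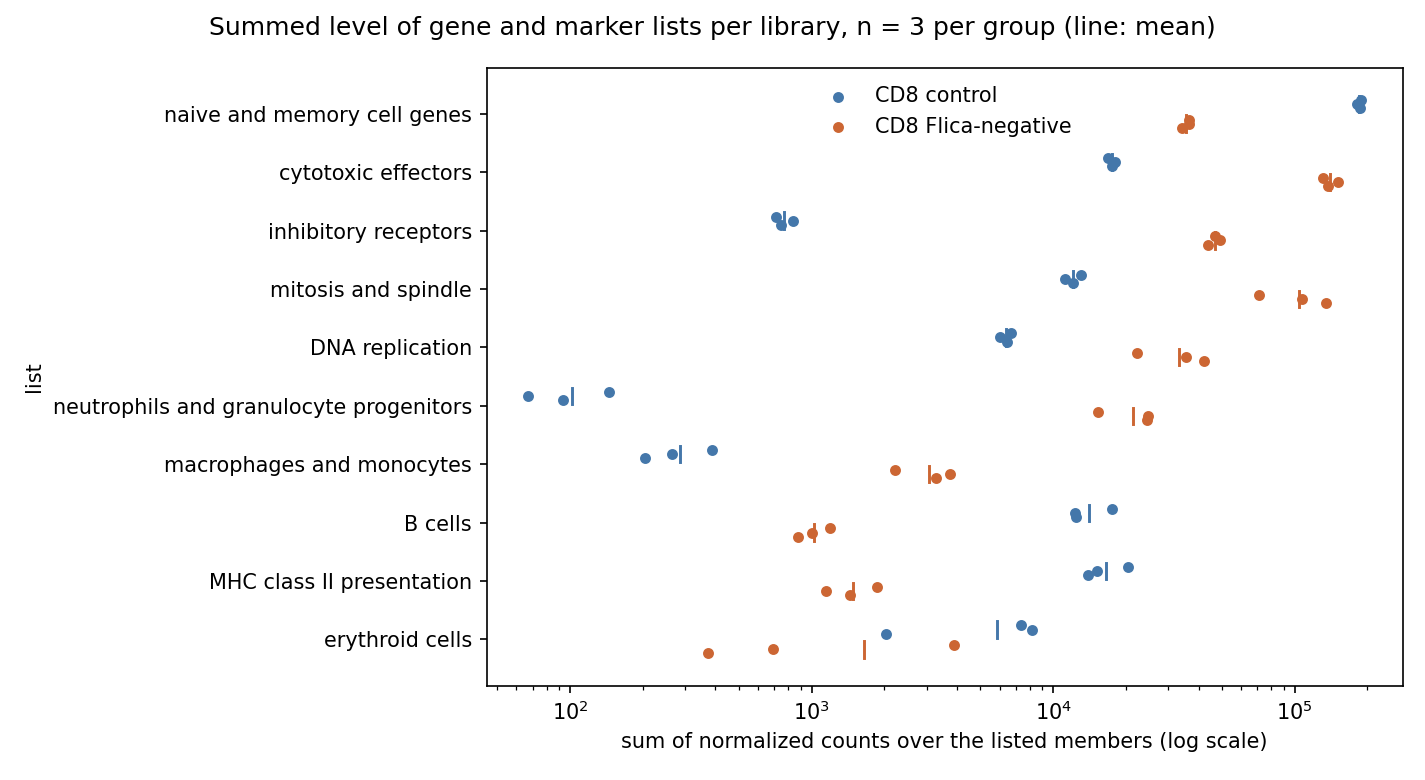
Sum of normalized counts over the listed members of 10 gene and marker lists (horizontal axis, log scale) in each of the 3 CD8 control and 3 CD8 Flica-negative libraries, with a line at each mean. The erythroid list is the 1 shown whose groups overlap, from 372 to 3882 on day 7 and from 2039 to 8189 in the controls.

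The CD4 libraries of the same sort design, 3 Flica-negative on day 7 and 3 controls, share no library with the CD8 comparison and allow a test of where the responses differ. In CD4 cells, 33.0% of 4358 tested genes were higher and 27.9% lower. The interaction of lineage and day, fitted in edgeR on 12 libraries, 3 in each of 4 groups, was called for 211 genes (4.66% of 4530) with a larger log2 fold change in CD8 cells and for 258 (5.70%) with a smaller one. With TMM the total fell from 469 to 285. A difference below is the CD8 minus the CD4 log2 fold change.

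Several effector genes rose further in CD8 cells. Gzma had log2 fold changes of 8.22 ± 0.37 in CD8 and 5.05 ± 0.33 in CD4 cells, a difference of 3.17 ± 0.43 (SE, edgeR adjusted p = 9.2e-05). Pdcd1 differed by 4.60 ± 0.40 (adjusted p = 1.1e-06), or by 5.27 without CD8 control replicate 2. Lag3 differed by 3.14 ± 0.40 (adjusted p = 4.0e-05) and Ctla4 by 2.62 ± 0.30 (adjusted p = 1.2e-05). Prdm1, with a CD4 log2 fold change of 2.81 ± 0.21, differed by 2.17 ± 0.30 (adjusted p = 1.1e-04). These 5 genes rose in both lineages, and their CD8 rise was the larger. Control means in CD8 and CD4 cells were 132 and 778 for Ctla4, 11.8 and 159 for Pdcd1, 34.3 and 127 for Lag3 and 62.8 and 164 for Prdm1, lower in CD8 cells each time, and 72.5 and 51.00 for Gzma, higher in CD8 cells. On day 7 the means in CD8 and CD4 cells were 11469 and 10916 for Ctla4, 8126 and 4488 for Pdcd1, and 5867 and 2470 for Lag3. They were 1979 and 1144 for Prdm1 and 21542 and 1699 for Gzma. The difference in Ctla4 thus lies mostly in the control level. In Pdcd1, Lag3 and Prdm1 both levels enter, with the wider ratio between lineages in the controls. For Gzma the wider ratio was on day 7. In the inhibitory receptor list as a whole, 6 of 14 genes had a larger and 2 a smaller log2 fold change in CD8 cells.

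Other genes rose more in CD4 cells, some of them already expressed by resting CD8 cells. Nkg7 had a CD4 log2 fold change of 6.27 ± 0.37 beside 1.70 ± 0.12 in CD8 cells, a difference of -4.57 ± 0.36 (SE, edgeR adjusted p = 5.8e-07). In control libraries its mean was 4535 ± 65.7 normalized counts in CD8 and 97.2 ± 48.9 in CD4 cells (SD, n = 3 each). Cxcr6 differed by -3.63 ± 0.29 (adjusted p = 5.8e-07) and Il18rap by -2.98 ± 0.26 (adjusted p = 1.1e-06). Tbx21 also rose less in CD8 cells, by -1.48 ± 0.31 (adjusted p = 0.0047), from a control mean of 450.2 in CD8 and 118 in CD4 cells. Control means in CD8 and CD4 cells were 1113 and 116 for Cxcr6 and 873 and 112 for Il18rap. In each of these genes the control level was higher in CD8 than in CD4 cells. Day 7 means were 14711 and 7547 for Nkg7, 4578 and 5887 for Cxcr6, 10460 and 10593 for Il18rap, and 5404 and 3978 for Tbx21.

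Of the 24 naive and memory genes tested, 16 had a smaller log2 fold change in CD8 cells and none a larger one. Tcf7 fell with -4.23 ± 0.13 in CD8 and -2.26 ± 0.16 in CD4 cells, a difference of -1.97 ± 0.20 (SE, edgeR adjusted p = 3.4e-06). Ccr7 differed by -2.42 ± 0.26 (adjusted p = 7.2e-06) and Il7r by -1.55 ± 0.22 (adjusted p = 1.1e-04). Il7r had a CD4 log2 fold change of 0.20 ± 0.13 (adjusted p = 0.21). Among division genes, 4 of 82 mitosis genes had a larger and 3 a smaller log2 fold change in CD8 cells, and 1 of 26 replication genes a larger one. Mki67 had log2 fold changes of 4.42 ± 0.24 in CD8 and 3.99 ± 0.18 in CD4 cells, a difference of 0.43 ± 0.28 that did not pass (adjusted p = 0.35).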

How the data were processed

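RNA of sorted CD8 T cells was sequenced in 3 Flica-negative day 7 and 3 control libraries, with CD4 libraries of the same design beside them. Per the labels, the authors used STAR 2.7.1a, DESeq2 and build GRCm38. The deposited tables give raw counts per gene, without normalization, and a mean signal per gene, which the authors computed as the mean over 15 libraries of counts divided by size factors. The factors were solved from that signal and used as offsets. Genes with at least 10 counts over the 6 libraries were tested with edgeR 4.0.16 (glmQLFit, glmQLFTest, Benjamini-Hochberg over all listed genes tested, adjusted p below 0.05), in R 4.3.3. SE is the log2 fold change over the square root of F. On counts simulated for this comparison (4371 genes), the test called 68 of 192 genes changed 4-fold, none with the wrong sign, and 57 of the 86 with a mean of at least 50 counts, along with 3 unchanged genes. Far fewer genes were changed there than were called in the data (3054 of 4444), so these rates do not carry over to the comparison. The interaction of lineage and day used 12 libraries. Libraries held 2503052 to 3147466 counts on listed genes. Floors are 3 counts per library and intervals are 95% exact binomial. Alternatives were DESeq2 1.42.0, TMM, median-of-ratios factors, other count filters, a replicate block, all 15 libraries in a single fit, glmTreat, a stricter threshold and leaving out each library, and, chosen after seeing the data, leaving out marker genes of other cell types and library number within day as a block.

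Genes were named by rule: the 10 largest rises and falls among called, non-overlapping genes whose mean normalized count was 100 or more, up to 4 called members per list by mean, and 26 set genes. Some genes of these lists are not reported here. Members and lists were chosen with earlier results of these data known, and genes named beyond the rule were chosen after their values were seen. The authors' own comparison columns and enrichment tables were not used. Positions and exon lengths are from GENCODE M21, which lacks 196 of the listed genes.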

Additional observations from a re-analysis of the deposited data

Results flagged for a closer look

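For 43 of the 108 named genes, the log2 fold change from control to day 7 differed between CD8 and CD4 Flica-negative cells in the edgeR interaction test on 12 libraries, with 3 in each group and adjusted p-values from 5.8e-07 to 0.045. The values below are CD8 minus CD4 log2 fold changes, and causes were not tested.

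Differences were above 0 for 20 genes. Among the largest rises they were 4.75 ± 1.44 (SE) for Mt1, 5.65 ± 0.74 for Il1rl1 and 7.79 ± 1.94 for Epha3, and the fitted values of these genes rest on few control counts. Effector genes gave 1.49 for Gzmb, 3.17 for Gzma, 1.30 for Prf1 and 2.17 for Prdm1, and receptors 2.62 for Ctla4, 4.60 for Pdcd1, 3.14 for Lag3, 1.63 for Tnfrsf9 and 3.11 for Klrb1c. Genes of division and chromatin gave 1.37 for E2f2, 0.97 for Hmgb2, 1.50 for Hmgn2 and 1.04 for Cenpa, and Dusp5 gave 0.97. Cd8a differed by 2.86, and it fell in both lineages, in CD4 cells from a mean of 69.4 normalized counts to 6.43. The class II genes H2-Ab1 and H2-Aa fell in both and by less in CD8 cells, with differences of 1.51 and 1.69.

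Differences were below 0 for 23 genes. The genes of resting cells gave -1.97 for Tcf7, -0.70 for Satb1, -2.42 for Ccr7 and -1.55 for Il7r. Genes that rose in both lineages and by more in CD4 cells gave -2.44 for Ly6c2, -4.57 for Nkg7, -0.88 for Srgn, -3.63 for Cxcr6, -1.20 for Cxcr3, -1.35 for Ahnak, -1.45 for Il2rb, -0.82 for Ifngr1, -2.98 for Il18rap, -1.48 for Tbx21, -1.28 for Cd69, -2.22 for Racgap1 and -1.15 for Cdk6. Those that fell in both, and further in CD8 cells, gave -1.06 for Ccnd2, -1.50 for Myc, -1.46 for Tgtp2, -1.21 for Gbp9, -2.65 for H2-Ob and -6.49 for Rapgef4os2. With 0 counts of Rapgef4os2 in the CD8 Flica-negative libraries, the size of its fitted difference is uncertain. Its CD8 fall was at least 78.3-fold, beside a CD4 log2 fold change of -4.40.

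With TMM 29 of the 43 were still called in the same direction, and Mt1, Gzmb, Srgn, Satb1, Tnfrsf9, Ifngr1, E2f2, Hmgb2, Hmgn2, Cenpa, H2-Ab1, H2-Aa, Dusp5 and Cd69 were not. The differences of these genes kept their signs and about their size with TMM, for instance 1.49 for Gzmb (edgeR adjusted p = 0.065) and 1.26 for E2f2 (0.074). With library number within day as a block 43 were called, with DESeq2 and with the replicate block 42, and with other count filters 43. Leaving out 1 of the 12 libraries left 38 to 42. Over 18 settings, Cenpa did not pass in 9, H2-Aa in 7 and Cxcr3 in 5. Without CD8 control replicate 2 the difference in Pdcd1 was 5.27, and without CD8 control replicate 1 that in Il1rl1 was 7.49. Without CD4 control replicate 3 that in Cd8a was 2.25. Rapgef4os2 did not pass without CD8 Flica-negative replicate 2 (edgeR adjusted p = 0.051), and its difference was -5.80 without CD4 Flica-negative replicate 3. The difference in Mt1 did not pass in 13 of 18 settings, among them DESeq2, TMM, the replicate block and leaving out any 1 CD8 library. It was -0.16 (edgeR adjusted p = 0.8) without CD4 control replicate 1, in a range from 0.0057 to 0.8 over 18 settings, and that in Epha3 3.29 (adjusted p = 1) without CD4 control replicate 3, in a range from 2.6e-04 to 1.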

How the results depend on the processing

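The counts of called genes kept within 1.5 times of their values under each alternative, with 1 exception. Leaving out marker genes only subtracts genes and is no test of the counts. Genes called higher ran from 1346 (adjusted p below 0.01) to 1767 (median-of-ratios factors), beside 1726, and genes called lower from 964 to 1448, beside 1328. With the replicate block, which pairs libraries by number, they were 1391 and 1023 and the difference between lineages 438. Deviations of same-numbered CD8 libraries of the 2 days correlated at -0.0311, -0.000125 and -0.0222 across genes. Between same-numbered CD4 and CD8 libraries of the same day they correlated at 0.0734, 0.0287 and 0.0973 on day 7 and at 0.106, 0.0235 and 0.0739 in the controls, and at -0.0909 to 0.0130 between those of different numbers. With library number within day as a block, a choice made after seeing the data, 566 genes were called for a difference between lineages, beside 469. Leaving out 1 library gave 1533 to 1667 higher and 1179 to 1249 lower. The genes called for a difference between lineages fell from 469 to 285 with TMM, and the cause was not tested. Leaving out 1 of 12 libraries gave 349 to 490, and DESeq2 gave 687, the most of any setting. Of 504 list counts in 42 results, 502 stayed within 1.5 times of their value, and with TMM the 1 gene called higher was lost in the naive and memory list (Ly6c2) and in the mitochondrial list (mt-Rnr1). Of 1404 values of the 108 named genes, 13 in 5 genes (Ly6c2, Cxcl10, Pgam1, Cd8a, Cd69) no longer passed and none changed direction.

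Limits are those of the tables. They hold selected genes, so no share of all genes follows. Depth limits the genes under the floor of 3 counts per library, and 123 of the 4567 listed genes had too few counts to test. With 3 replicates per group and controls of untreated mice, host, irradiation, transfer and time cannot be told apart. The strand of counting is not given in the sources used here, and whether Rapgef4os2 holds reads of the gene opposite was not tested.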
